A study of Homo sapiens with 2 samples.

Results

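The genes described here are 10 genes of the hypoxia response, chosen by symbol, among the 27685 genes of an RNA-seq data set of lung cancer cell lines. They comprised the oxygen-regulated transcription factor subunits HIF1A and EPAS1, the prolyl hydroxylases EGLN1 and EGLN3, the carbonic anhydrases CA9 and CA12, the secreted factors VEGFA and ADM, and the target genes NDRG1 and ANKRD37. The data held 1 library of H2087 and 1 library of H596, established cell lines that the labels describe as lung adenocarcinoma. Both were untreated and grown in RPMI medium with fetal bovine serum, and the oxygen tension of the cultures is not given in the sources used here. H2087 is the cell line in which the study mapped histone marks and looked for highly expressed genes. Every value below comes from 1 library per cell line, so no difference has a replicate check and no p-value was computed.

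The total estimated count was 46961500 in H2087 and 55387847 in H596. Levels are given as deposited FPKM, that is fragments scaled to transcript length and library size, with a 95% interval that covers counting error only. Markers of lung adenocarcinoma and of squamous epithelium differed between the libraries. In H596, KRT7 (FPKM 608) was the highest of 8 adenocarcinoma markers and the other 7 were below an FPKM of 1, among them NKX2-1 (0.508), the transcription factor of lung epithelium. In H2087, KRT7 (791) was also the highest, 5 of the 8 reached an FPKM of 1, and NKX2-1 stood at 110. SFTPB, SFTPC and SFTA2 were below 1 in both libraries. The 7 squamous markers summed to an FPKM of 534 in H596 against 40.8 in H2087, with TRIM29 the highest in H596 (227) and SOX2 the highest in H2087 (39.1). Of 7 markers of stroma, endothelium and blood, CD68 was the highest in both libraries (128 in H2087 and 25.6 in H596). DCN, a matrix proteoglycan of fibroblasts, went the other way, with 0 counts in H2087 and 2361 counts (FPKM 9.77) in H596, and VWF had 25 and 246 counts. PTPRC, the marker of blood cells, had 0 counts in both, and 2 of the 7 were at 0 counts in H2087 and 3 in H596. Their summed FPKM was 132 in H2087 and 36.7 in H596. Any part of these differences in the results below was not tested.

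In oxygenated cells the alpha subunits of hypoxia-inducible factor (HIF), encoded by HIF1A and EPAS1, are hydroxylated on proline by the EGLN enzymes, bound by the VHL protein and degraded. When oxygen falls, the alpha subunits accumulate, pair with ARNT and switch on genes for glucose uptake, pH control, vessel growth and survival. The alpha subunits are thus regulated mainly as proteins, and their mRNA does not report HIF activity. Several target genes, EGLN3, CA9, ADM, NDRG1 and ANKRD37 among them, are widely used as readouts of that activity in cultured cells and tumors.

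HIF binds a short core motif, searched here as ACGTG and GCGTG on both strands, in RefSeq promoters of 300 bases, 250 before and 50 after the annotated start. Of the 10 genes, 8 were matched in this table by symbol, and VEGFA and NDRG1 were not. The 8 genes had 9 promoters, of which 7 held at least 1 match, beside 48.4% of all 35116 promoters in the table. The motif is therefore common at this window size, and a match is a description and not a binding site. The sequences below were found in GRCh37 by exact match of the whole promoter and are written 5′ to 3′ on the strand of the gene. They are shown because they hold the motif, in capitals, in genes that differed in level between the cell lines and in genes that did not.

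HIF1A (chr14:62162012-62162041, plus strand): gattggctgagagcgGCGTGggctggggtg
EPAS1 (chr2:46524414-46524443, plus strand): gcggggcctgccggcGCGTGcccgcccaca
EGLN1 (chr1:231558032-231558061, minus strand): gcggggccgtggtgtACGTGcagagcgcgc
CA9 (chr9:35673892-35673921, plus strand): ctctcgtttccaatgCACGTacagcccgta
CA12 (chr15:63674265-63674294, minus strand): caggcggatctcaccCACGCctgccagcag
ADM (chr11:10326504-10326533, plus strand): cgagagcaggagcgcGCGTGgctgaggaaa
ANKRD37 (chr4:186317819-186317848, plus strand): ccggcgccgggctccACGTGccagtgtttg
ANKRD37 (chr4:186317837-186317866, plus strand): tgccagtgtttgtgtACGTGcggccgtggc

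In CA9 and CA12 the motif lies on the strand opposite to the gene. CA12 held a second match, not shown, after its start. In CA9 the motif begins 18 bases before the annotated start, and in ADM 101 bases before it. ANKRD37 was the gene with the most matches, 3, of which the pair at 162 and 161 bases before the start overlaps, as the same letters read on both strands. ACGTG itself was in the promoters of EGLN1, CA9 and ANKRD37, beside 21.4% of all promoters. EGLN3 and the second promoter of HIF1A held neither motif in this window. The annotated start of the EGLN1 promoter is 2757 bases from the start of the deposited EGLN1 transcript, so that window may not be the one used by the deposited model.

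The mRNA levels of the HIF alpha subunits were opposite in order in these libraries. HIF1A (gene 3091, chromosome 14 of hg19, 62162119 to 62214977) had an FPKM of 129.5 (95% interval, 128 to 131) in H2087 and 66.8 (65.7 to 67.8) in H596. EPAS1 (gene 2034, chromosome 2, 46524541 to 46613842), which encodes HIF-2 alpha, had an FPKM of 25.4 (24.8 to 26.0) in H2087 and 95.1 (94.0 to 96.3) in H596. HIF1A was thus 1.94-fold higher in H2087 (1.90 to 1.98), and EPAS1 3.75-fold higher in H596 (3.65 to 3.85), both by the ratio of FPKM. Within H2087, HIF1A exceeded EPAS1 by 5.10-fold, whereas within H596 EPAS1 exceeded HIF1A by 1.42-fold. The sum of the pair was similar, 155 FPKM in H2087 against 162 in H596, and HIF1A made up 83.6% and 41.2% of it.

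**Figure D1:**
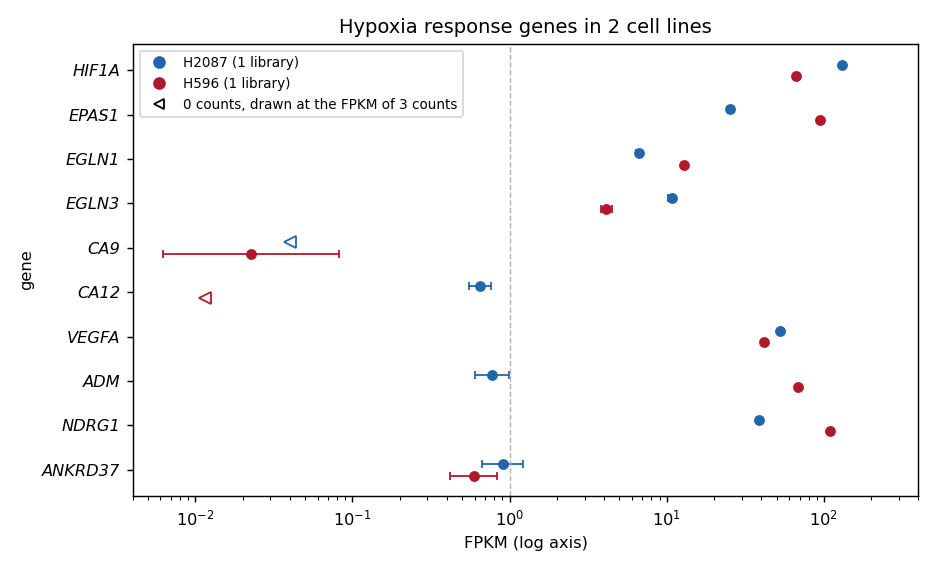
FPKM (log axis) of the 10 hypoxia response genes in H2087 (blue) and H596 (red), 1 library each; bars are 95% Wilson intervals of counting error and open triangles mark 0 counts, drawn at the FPKM of 3 counts. HIF1A and EPAS1 are in opposite order in the cell lines, ADM rises from 0.772 to 68.4, and CA9, CA12 and ANKRD37 lie below an FPKM of 1 in both.

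HIF1A was listed with 3 transcripts. Variant 1 had 102 FPKM in H2087 against 44.2 FPKM in H596, and variant 2 had 26.4 and 21.7. Variant 2 therefore made up 20.4% of the gene's FPKM in H2087 and 32.5% in H596, so that most of the lower HIF1A level in H596 was in variant 1. Variant 3, which starts at another position, made up 0.751% and 1.31%. Variant 2 is 127 bases shorter than variant 1, and the annotated exon of that length in HIF1A is a coding exon at chr14:62212409-62212535 on the plus strand. Its length leaves a remainder of 1 when divided by 3, so its absence shifts the reading frame. The exon is printed here as the stretch that separates these variants, all of it in lower case.

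HIF1A exon of 127 bases: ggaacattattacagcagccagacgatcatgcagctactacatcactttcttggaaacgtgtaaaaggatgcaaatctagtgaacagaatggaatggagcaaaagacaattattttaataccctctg

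Splice junction counts were not analysed here, and how reads were split among overlapping transcripts is an estimate whose error the intervals do not cover. HIF1A overlaps the antisense genes HIF1A-AS1 and HIF1A-AS2. HIF1A-AS1 had 18 counts in H2087 and 4 in H596. HIF1A-AS2 had 21 counts and 1 count, and the third overlapping gene, LOC105370526, had 8 and 7. All were far below the 25036 and 15219 counts of HIF1A, and whether strand was used in counting is not stated.

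The prolyl hydroxylases also differed, in opposite directions. EGLN1 (gene 54583, chromosome 1, 231499497 to 231560790), the main oxygen sensor that limits HIF-1 alpha, had an FPKM of 6.63 (6.36 to 6.91) in H2087 and 12.9 (12.5 to 13.2) in H596. EGLN3 (gene 112399, chromosome 14, 34393421 to 34420284), a hydroxylase that is itself a HIF target gene, had an FPKM of 10.7 (10.2 to 11.3) in H2087 and 4.12 (3.81 to 4.45) in H596. EGLN1 was 1.94-fold higher in H596 (1.85 to 2.04) and EGLN3 2.61-fold higher in H2087 (2.37 to 2.87). EGLN2, the third member of the family and the only one not among the 10 genes, stood at 10.6 FPKM in H2087 against 32.2 FPKM in H596. The share of EGLN3 in the FPKM of the 3 enzymes was 38.4% in H2087 and 8.38% in H596, while that of EGLN2 was 37.9% and 65.4%. EGLN2 was thus at the level of EGLN3 in H2087 and the highest of the 3 in H596.

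**Figure D2:**
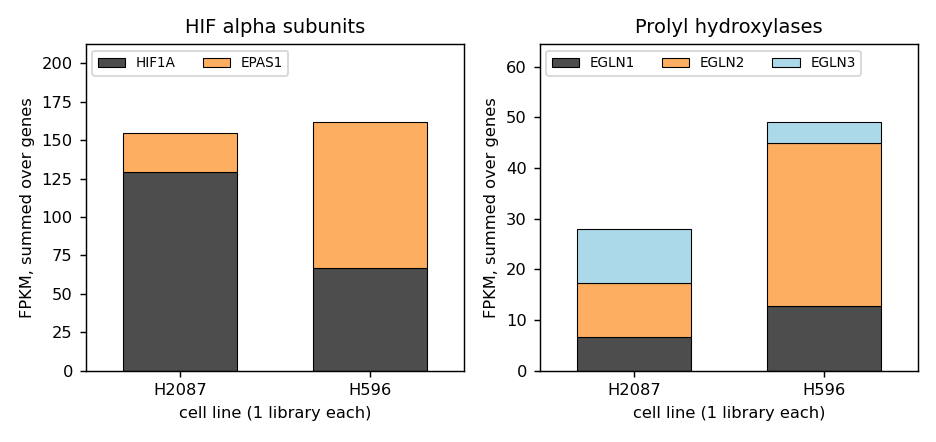
Stacked FPKM of the HIF alpha subunits (left) and of the 3 EGLN prolyl hydroxylases (right) in 1 library of each cell line. The HIF alpha sum is 155 in H2087 and 162 in H596 with a different make-up, and EGLN3 falls from 38.4% to 8.38% of the hydroxylase FPKM.

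The carbonic anhydrases CA9 and CA12 are membrane enzymes that hydrate carbon dioxide outside the cell and are induced by HIF in many carcinomas. Both were below an FPKM of 1 in both libraries. CA9 (gene 768, chromosome 9, 35673915 to 35681154) had 0 counts in H2087, which allows up to an FPKM of 0.0401 for 3 counts, and 2 counts in H596, an FPKM of 0.0227. Both lie at or under the floor of 3 counts, so no fold is given and a difference in CA9 was not detectable at this depth. CA12 (gene 771, chromosome 15, 63613577 to 63674365) had 143 counts in H2087, an FPKM of 0.645 (0.548 to 0.760), and 0 counts in H596, which allows up to 0.0115. CA12 was at least 56.2-fold higher in H2087 by this floor of 3 counts per library, at a low level in either case. Of its 4 listed transcripts, variants 1 and 4 held the 143 counts in H2087, 107 and 36.

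The 13 other carbonic anhydrase genes on the list summed to 18.0 FPKM in H2087 and 5.32 FPKM in H596, and 7 of them had 0 counts in each library. CA11, a family member without enzyme activity, was the highest, with 10.8 in H2087 and 3.08 in H596. CA13, a cytosolic enzyme, had 3.42 and 0.414. CA2, also cytosolic, had 1.68 and 0 counts, and CA3 had 1.12 and 0 counts. CA5B, a mitochondrial enzyme, went the other way, with 0.833 and 1.66. The levels in H596 were lower for CA11, CA13, CA2, CA3 and CA12, and higher for CA5B.

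Of the secreted factors, ADM differed most, and most among the 7 of the 10 genes whose mean FPKM reached 1. ADM (gene 133, chromosome 11, 10326527 to 10328949) encodes adrenomedullin, a peptide that dilates vessels and is induced by HIF. It had 59 counts and an FPKM of 0.772 (0.598 to 0.996) in H2087, and 6170 counts and an FPKM of 68.4 (66.7 to 70.1) in H596. The ratio of FPKM was 88.6 (68.6 to 117), and the width of this interval comes from the 59 counts in H2087. ADM ranked 12979 among 27685 genes in H2087 and 1020 in H596. CALCRL encodes the receptor itself and the RAMP genes its partner proteins. CALCRL, RAMP2 and RAMP3 each had at most 41 counts in a library. RAMP1, a partner of CALCRL that is not specific to ADM, stood at 27.2 FPKM in H2087 against 31.1 FPKM in H596. Its level is not read as that of an ADM receptor.

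VEGFA (gene 7422, chromosome 6, 43737946 to 43754223), the main growth factor of blood vessels, had an FPKM of 52.7 (51.6 to 53.8) in H2087 and 41.8 (40.9 to 42.7) in H596. The ratio of FPKM, H596 over H2087, was 0.793 (0.770 to 0.818), a difference beyond counting error and below 2-fold. Of its 3 receptor genes whose mean FPKM reached 1, KDR and NRP2 were at least 2-fold lower in H596, beside 14.2% of all genes compared. With so few genes this count is a description. KDR, a tyrosine kinase receptor, stood at 2.16 FPKM in H2087 against 0.201 FPKM in H596, and its mean reached 1 only through H2087. The co-receptor NRP2 had 23.9 and 5.48, and NRP1, a co-receptor within 2-fold, had 37.5 and 28.0. FLT1, a tyrosine kinase receptor as well, had 0 and 30 counts.

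The gene level of VEGFA hid a difference in the transcripts assigned to it. The table lists 20 transcripts of 10 numbered variants. VEGFA transcripts are known to differ mainly in exons near the end of the coding region that set how firmly the protein binds heparin and matrix. Variant 10 also starts at another position, 43739722 against 43737946 for the other 9. Variants 2, 4 and 6 made up 85.2% of the VEGFA FPKM in H2087 and 24.4% in H596. Variant 6 was the highest in H2087, with 37.7% of the FPKM against 7.91% in H596, followed by variant 2 with 26.2% against 9.66% and variant 4 with 21.4% against 6.87%. In H596, variant 8 was the highest with 18.1%, followed by variant 7 with 15.6% and variant 9 with 14.1%, against 1.84%, 2.28% and 1.66% in H2087. The H596 shares of the 9 variants with counts lay between 6.87% and 18.1%, whereas those of H2087 were concentrated in 3 variants.

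Variant 4 is 132 bases longer than variant 6, and variant 2 is 72 bases longer than variant 4. Coding exons of exactly these lengths are annotated in VEGFA, at chr6:43749693-43749824 and chr6:43748469-43748540 on the plus strand, and are printed in lower case as the sequence that separates the 3 variants leading in H2087. Both lengths are multiples of 3 and keep the reading frame.

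VEGFA exon of 132 bases: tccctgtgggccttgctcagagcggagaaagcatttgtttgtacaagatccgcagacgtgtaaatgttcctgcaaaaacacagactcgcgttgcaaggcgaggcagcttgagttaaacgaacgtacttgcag
VEGFA exon of 72 bases: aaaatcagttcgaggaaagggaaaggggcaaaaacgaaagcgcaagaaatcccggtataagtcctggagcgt

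These shares are estimates and were not checked by junction reads. Variant 6 is listed as transcripts NM_001025370 and NM_001171628, of equal length and position. Their FPKM values were 5.84 and 14.0 in H2087, and 1.69 and 1.62 in H596. The unequal values in H2087 show how far the assignment can separate models that share length and position, so the sum per variant was used above. The near-equal values in H596 do not show that its shares are better resolved. Whether the spread over 9 variants in H596 comes from reads that could not be resolved was not tested. By the highest single transcript, VEGFA differed by -1.61 on the log2(FPKM + 1) scale, H596 minus H2087, against -0.33 for the gene.

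**Figure D3:**
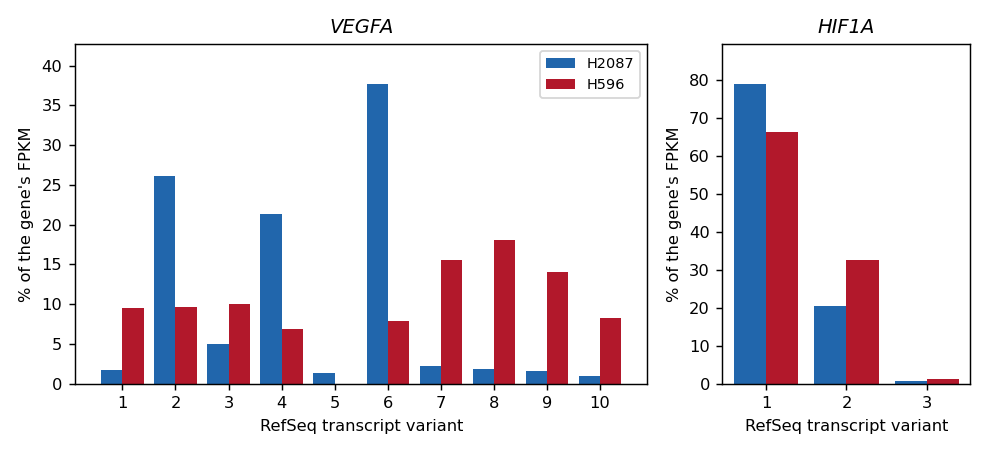
Share of the gene's FPKM (%) by RefSeq transcript variant for VEGFA (left) and HIF1A (right), in H2087 (blue) and H596 (red), 1 library each. VEGFA variants 2, 4 and 6 hold 85.2% in H2087 and 24.4% in H596, and HIF1A variant 2 holds 20.4% and 32.5%.

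NDRG1 and ANKRD37, target genes with other functions, behaved differently from each other. NDRG1 (gene 10397, chromosome 8, 134249414 to 134309547), a stress-responsive gene linked to differentiation, had an FPKM of 38.6 (37.7 to 39.7) in H2087 and 109 (107 to 110.4) in H596. It was 2.82-fold higher in H596 (2.73 to 2.90), and variant 2, the highest of its 4 listed transcripts, accounted for 37.7 FPKM in H2087 and 106 FPKM in H596. ANKRD37 (gene 353322, chromosome 4, 186317840 to 186321399), a small ankyrin repeat gene, had 41 counts in H2087 and 32 in H596. Its FPKM was 0.902 (0.665 to 1.22) and 0.590 (0.418 to 0.833), and the interval of the ratio, H596 over H2087, ran from 0.399 to 1.07. A difference in ANKRD37 was thus not detectable at this depth. ANKRD37 overlaps UFSP2, which had an FPKM of 8.99 and 8.41, so reads near the shared start are uncertain.

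Set in order, the levels in H2087 were HIF1A, VEGFA, NDRG1, EPAS1, EGLN3, EGLN1, ANKRD37, ADM, CA12 and CA9. The intervals of neighbours in this order overlapped for ANKRD37 with ADM and for ADM with CA12. In H596 the order was NDRG1, EPAS1, ADM, HIF1A, VEGFA, EGLN1, EGLN3, ANKRD37, CA9 and CA12. Here the intervals of ADM and HIF1A overlapped, as did those of CA9 and CA12. NDRG1 and EPAS1 moved to the top in H596, and ADM from among the genes below an FPKM of 1 to the third place.

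Between the cell lines, each gene with a mean FPKM of 1 or more was compared on the log2(FPKM + 1) scale, as H596 minus H2087. A difference of at least 1 on this scale is counted as 2-fold. Of the 10 genes, 7 reached the filter, ADM only through its level in H596, and CA9, CA12 and ANKRD37 did not. ADM (5.29), EPAS1 (1.86) and NDRG1 (1.47) were at least 2-fold higher in H596, beside 18.2% of all 13048 genes compared. EGLN3 (-1.20) was at least 2-fold lower, beside 14.2% of all genes. As deposited, HIF1A (-0.95), EGLN1 (0.86) and VEGFA (-0.33) were within 2-fold. TMM scales the libraries by a trimmed mean of the ratios of their counts. With TMM, or with centring on the median of all genes, HIF1A was also past 2-fold, which gave 3 higher and 2 lower. With TPM, which scales FPKM to the same sum in each library, EGLN1 was also past 2-fold, which gave 4 higher and 1 lower. The median of the 7 was 0.86 and that of all genes 0.12. With 7 genes, a count of 3 higher and 1 lower is a description and is not set apart from the background.

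**Figure D4:**
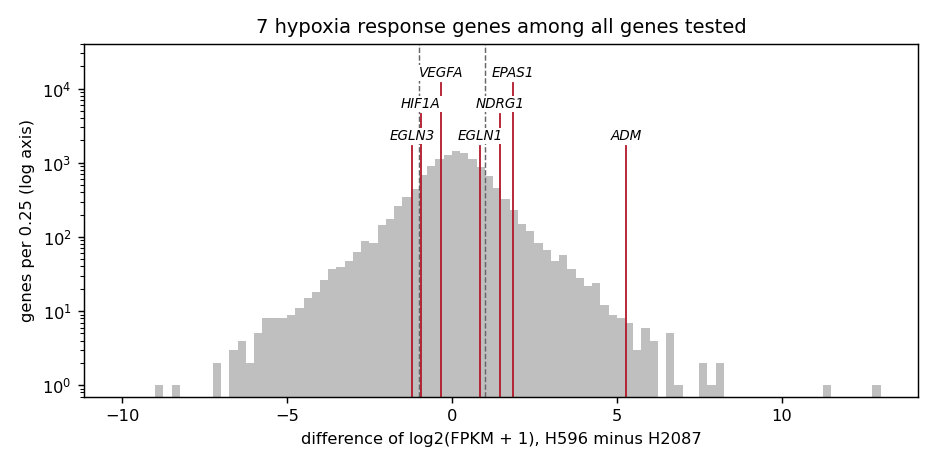
Number of genes (log axis) by log2(FPKM + 1) in H596 minus that in H2087, over 13048 genes whose mean FPKM was 1 or more, with red lines at 7 hypoxia response genes and dashed lines at 2-fold. ADM, at 5.29, lies in the far right of the distribution, and the other 6 lie between -1.20 and 1.86.

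The other genes of the pathway were taken from a list of 77 genes grouped by role, of which 67 reached the filter. Of these, 9 (13.4%) were at least 2-fold higher and 19 (28.4%) at least 2-fold lower in H596, beside 18.2% and 14.2% of all genes compared. Their median was -0.45, beside 0.12 for all genes. With centring on the median of all genes, 5 were higher and 21 lower, beside 2042 and 2120 of all genes. With TPM, 13 were higher and 18 lower, beside 3212 and 1683 of all genes. Among the partners and coactivators of HIF, 1 of 3 genes compared was 2-fold higher, CREBBP, a histone acetyltransferase, with a difference of 1.07. With TPM all 3 were 2-fold higher, and with centring or by the highest single transcript 0 were. Among 8 genes of oxygen sensing and HIF degradation, EGLN2 had the largest increase (1.52) and CUL2, the scaffold of the VHL ubiquitin ligase, the largest decrease (-2.12). The CUL2 level was 38.2 FPKM in H2087 against 8.01 FPKM in H596. In all, 2 of these 8 were 2-fold higher and 1 lower, but 2 and 2 with TMM and 1 and 2 with centring, so the balance depended on the scaling.

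Of 20 genes of glucose uptake and glycolysis, 11 (55.0%) were at least 2-fold lower in H596 and 0 were higher, beside 14.2% and 18.2% of all genes, with a median of -1.14. With TPM, 10 were lower and 1 higher, and with TMM scaling of counts 13 were lower and 0 higher. By the highest single transcript, 10 were lower and 2 higher. SLC2A3, a glucose transporter that reached the filter only through H2087, had the largest difference, with 1840 counts (FPKM 9.74) in H2087 and 8 counts (0.0358) in H596. Among 5 mitochondrial and autophagy genes, BNIP3, a mitophagy receptor and HIF target, stood at 86.8 FPKM in H2087 against 6.34 FPKM in H596, a difference of -3.58. HIGD1A, a mitochondrial protein, had 12.5 and 45.9, a difference of 1.80.

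Among 21 growth, stress and transcription genes, 2 (9.52%) were higher and 4 (19.0%) lower, beside 18.2% and 14.2% of all genes. Their median was -0.26, and with so few genes these counts are a description. TXNIP, a thioredoxin-binding protein that also responds to glucose, stood at 86.6 FPKM in H2087 against 431 FPKM in H596. HMOX1, a heme-degrading enzyme that also responds to oxidative stress, had 21.0 and 1.85. BHLHE41, among the 4 lower, had 2.30 and 0.646 and reached the filter only through H2087. Among 10 matrix and secreted factors, 3 were higher and 2 lower, and 2 and 2 with TMM or centring, counts too small to set beside the shares of all genes. IGFBP3, which binds insulin-like growth factors, had 14.3 and 951, a difference of 5.96 and the largest on the list. LOXL2, which cross-links collagen and reached the filter only through H2087, had 3.63 and 0.290, a difference of -1.84. EDN1, among the 3 higher, had 0.691 and 5.73 and reached the filter only through H596. Apart from BHLHE41 and EDN1, the genes named here were taken as the largest of their role in each direction. That both directions appear among them follows from the choice.

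**Figure D5:**
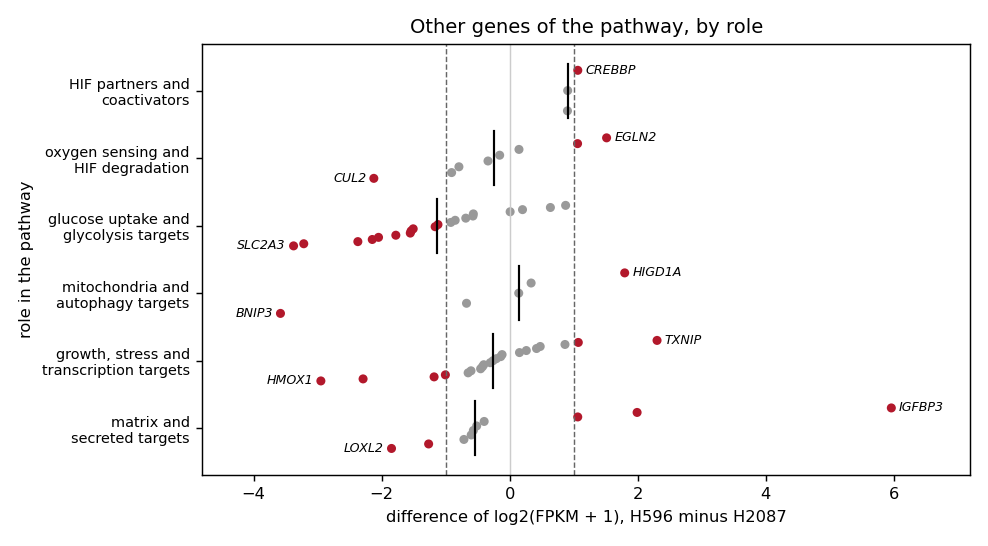
Log2(FPKM + 1) in H596 minus that in H2087 for the 67 other pathway genes compared, 1 point per gene by role, red where at least 2-fold (dashed lines), with a black bar at the median of each role. The glucose and glycolysis genes have the lowest median, -1.14, and IGFBP3 the highest difference, 5.96.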

How the data were processed

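Stranded mRNA libraries of total RNA were sequenced on an Illumina HiSeq4000. The submitters' processing notes and the methods name bcl2fastq 1.8.4, Trimmomatic, HISAT2 2.0.5 with hg19 and StringTie 1.3.3b. Deposited FPKM, as made by the authors, is scaled to transcript length and library size. Estimated counts in the same deposited tables are integers, and how they were derived is not stated; mates counted separately would make the intervals too narrow. Gene rows were used, and transcript rows for shares.

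Samples were grouped by the cell line in the labels. Differences were taken as log2(FPKM + 1) where the mean FPKM was at least 1; the pseudocount understates changes of low genes. Intervals of FPKM are 95% Wilson intervals of the share of the total count, and intervals of ratios come from exact (Clopper-Pearson) binomial intervals of the counts (scipy 1.17.1). A count of 0 was taken as up to 3 counts per library. The calls and the intervals of ratios were tested on simulated data with independent counting error only. Such data cannot show whether the intervals hold for the estimated counts. TMM scaling used edgeR 4.0.16 in R 4.3.3. Python 3.11.15, numpy 2.4.6, pandas 2.3.3 and matplotlib 3.10.9 were used.

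The members and gene lists were chosen with earlier results of these data known. Of the pathway list, the gene with the largest difference of at least 2-fold in each direction was named per role; of receptors, families and antisense genes, those with an FPKM of at least 1 in either library; of the markers, the highest of each role. CALCRL, RAMP2, RAMP3, FLT1, HIF1A-AS1, HIF1A-AS2, LOC105370526, UFSP2, VEGFD, NKX2-1, SFTPB, SFTPC, SFTA2, EDN1 and BHLHE41 were named after their values were seen. Promoters are from the RefSeq table (GRCh38.p14) and were placed in GRCh37 by exact match; exons are from GENCODE release 44 mapped to GRCh37.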

Additional observations from a re-analysis of the deposited data

How the results depend on the processing

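The counts were recomputed under 10 alternatives each: a pseudocount of 0.1, TPM, TMM-scaled counts, centring on the median, summed transcripts, the highest single transcript, 2 other filters and 2 other fold thresholds. Of 30 recomputed counts, 24 lay within 1.5 times the reported one. The member count could not change with summed transcripts. Nor could it change without the filter, since the members this adds were below an FPKM of 1 in both libraries. The factor of 1.5 does not compare the split into higher and lower. At 4-fold, 1 of the members (ADM), 11 of the pathway genes and 1322 of all genes were past the threshold, against 4, 28 and 4226 at 2-fold; at 1.5-fold, 43 pathway genes and 7124 of all genes were past it. With a mean FPKM of at least 10, 1986 of all genes were past 2-fold, since fewer genes were compared. The median of all genes, 0.12 as deposited, was 0.30 with TPM and 0.01 with TMM.

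ADM, EPAS1, NDRG1 and EGLN3 stayed past 2-fold in the same direction under the 6 alternatives of scale, pseudocount and transcripts. Summed transcripts could not change any member, since the sums equal the gene FPKM. For members with 1 listed transcript, ADM and EPAS1 among them, the highest transcript could not change the value either. HIF1A passed 2-fold with TMM (-1.09), with centring (-1.06) and by its highest transcript (-1.19), and EGLN1 with TPM (1.09). The members past 2-fold split into 3 higher and 1 lower as reported. They split into 4 and 1 with TPM, 3 and 2 with TMM or centring, and 3 and 3 by the highest transcript. The pathway genes split into 9 and 19 as reported. They split into 13 and 18 with TPM, 8 and 22 with TMM, and 5 and 21 with centring. Of 60 recomputed differences of single members, including these that could not change, 1 changed sign, that of CA9 with centring (-0.08 against 0.03). The share of HIF1A variant 2 by counts was 19.9% and 31.8%. No paired analysis was possible because there was 1 library per cell line, and leaving a library out was likewise not possible. Depth limits CA9, CA12 and ANKRD37, and the lower level of ADM.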

Other observations

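Relatives of VEGFA and NDRG1 also differed between the cell lines. VEGFC, which drives growth of lymphatic vessels, had 0 counts in H2087 and 293 in H596, an FPKM of 2.47, and was at least 82.8-fold higher in H596 by the floor of 3 counts per library. PGF, the placental growth factor, had 131 counts and an FPKM of 1.44 in H2087 against 5 counts in H596. VEGFB had an FPKM of 20.9 and 14.9, and VEGFD had 4 counts and 0. NDRG2 was higher in H596, as NDRG1 was, with 6.59 FPKM in H2087 against 31.9 in H596. NDRG4 was lower, with 6.80 and 0.194, and NDRG3 had 17.7 and 24.7.

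The neighbours of the members were looked at after the members' values were known, as the 10 genes on each side that reached the filter. Around EGLN3, 18 of 20 neighbours were lower in H596, with a median difference of -0.77 beside -1.20 for EGLN3. Around EPAS1, which differed by 1.86, 14 of 20 were lower, with a median of -0.49. The 20 neighbours of VEGFA had a median of 0.63 and VEGFA itself -0.33. At least 2-fold, 7 neighbours were lower and 0 higher around EGLN3, 4 and 1 around EPAS1, and 3 and 7 around VEGFA. Of all genes compared, 14.2% were lower and 18.2% higher by 2-fold, with a median of 0.12. The medians around HIF1A, EGLN1, ADM and NDRG1 were 0.03, 0.05, 0.24 and 0.36. EGLN3, EGLN1, ADM and NDRG1 thus differed in the direction of the median of their neighbours, and HIF1A, EPAS1 and VEGFA against theirs. These medians have no test and no DNA data were analysed here.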
